A study of Mus musculus with 43 samples.

Results

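H4R3me2s peaks of the mouse testis at postnatal day 7 (P7) were compared between wild-type mice (WT, 2 lists) and Prmt1 dKO mice (dKO, 2 lists). The lists were chosen by their sample labels alone and are 4 of the 43 samples of the series. They held 118288 of the 935217 peaks in its 33 CUT&Tag lists. CUT&Tag cuts and tags the DNA beside an antibody-bound histone mark, and a peak caller run on each sample separately turned the reads into peaks. The dKO mice carried Ddx4-CreERT2, a tamoxifen-induced Cre that acts in germ cells, with both Prmt1 alleles floxed at exons 4 and 5. All mice had the C57BL/6J background. Whether the WT mice used for CUT&Tag carried Cre or received tamoxifen is not clear from the sources used here, so that the deletion, the Cre allele and tamoxifen cannot be told apart. The labels call the cells spermatogonia, and the CUT&Tag input was a single-cell suspension of digested testis tubules that was passed through cell strainers to remove Sertoli cells, without a stated sort. The methods give biological replicates as the general rule, but whether the lists used here came from separate animals is not stated, so that the spread between them may be technical.

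Arginine 3 of histone H4 can carry a symmetric or an asymmetric dimethyl group. PRMT5, working with its partner WDR77, is the main source of the symmetric form, H4R3me2s, which is best known as a repressive mark and which in germ cells is tied to PRMT5 and PRDM1. PRMT1 makes the asymmetric form, H4R3me2a, and so competes for the same residue. H3K4me3 marks the start sites of active or poised genes, and H3K27ac marks active promoters and enhancers.

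The reference sequence under the summits shows the 4 kinds of place that the comparison turned on, each as 150 bases centred on a summit (RefSeq GRCm38.p6, which has the mm10 coordinates). At CpG promoters, the window at Prmt1 (WT 1 summit, chr7:44986590-44986739, plus strand) met a peak of WT 1 alone. The WT 2 peak of that promoter lay outside the window, and neither dKO list had a peak there. Foxo3 (chr10:42278125-42278274, plus strand) had peaks in both dKO lists and in neither WT list. The capitals mark CpG, of which the windows held 11 and 22.
Prmt1: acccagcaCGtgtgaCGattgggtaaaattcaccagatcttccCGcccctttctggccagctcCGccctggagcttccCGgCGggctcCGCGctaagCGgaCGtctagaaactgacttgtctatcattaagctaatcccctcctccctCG
Foxo3: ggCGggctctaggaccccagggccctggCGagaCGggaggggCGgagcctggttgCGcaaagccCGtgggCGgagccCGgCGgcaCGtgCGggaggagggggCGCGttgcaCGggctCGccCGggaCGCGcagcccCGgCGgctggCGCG

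The region at Gm21399, a processed pseudogene, lay on chromosome 8 and was held by the WT lists alone (chr8:129253314-129253463, plus strand). The capitals mark the 3 bases that differed from the transcript of Prdx1, a peroxiredoxin gene elsewhere in the genome.
Gm21399: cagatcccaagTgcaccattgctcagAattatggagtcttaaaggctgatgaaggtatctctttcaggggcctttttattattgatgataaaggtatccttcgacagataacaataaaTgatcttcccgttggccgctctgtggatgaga

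Windows from 3 regions held by the dKO lists alone shared a stretch of 49 bases, given in capitals. They lay in an exon of Galntl6 (chr8:58298408-58298557, plus strand), nearest to Gm24458 (chr3:151624264-151624413, minus strand) and nearest to Ighv3-4 (chr12:114241393-114241542, plus strand). The stretch was picked after these windows had been read.
Galntl6: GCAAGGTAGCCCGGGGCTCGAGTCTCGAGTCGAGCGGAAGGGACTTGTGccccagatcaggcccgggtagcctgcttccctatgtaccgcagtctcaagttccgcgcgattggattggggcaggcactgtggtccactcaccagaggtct
Gm24458: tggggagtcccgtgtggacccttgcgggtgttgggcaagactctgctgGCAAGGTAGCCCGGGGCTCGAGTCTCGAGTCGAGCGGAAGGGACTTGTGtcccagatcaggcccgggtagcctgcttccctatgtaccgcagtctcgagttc
Ighv3-4: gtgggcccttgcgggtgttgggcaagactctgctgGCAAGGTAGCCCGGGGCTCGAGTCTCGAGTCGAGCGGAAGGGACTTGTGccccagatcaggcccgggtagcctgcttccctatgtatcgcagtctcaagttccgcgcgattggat

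The strongest promoter region held by all 4 lists, at Gm33838 (chr9:35305357-35305506, plus strand), was major satellite, the repeat of mouse pericentromeres. The capitals mark a stretch of 34 bases that it shared with the regions at Gm10800 and Gm10717.
Gm33838: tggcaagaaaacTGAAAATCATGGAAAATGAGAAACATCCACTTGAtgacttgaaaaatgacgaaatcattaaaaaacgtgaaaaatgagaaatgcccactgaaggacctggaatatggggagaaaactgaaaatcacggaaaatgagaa

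One WT list stood apart from the other 3 lists in most measures, and values are given per list where results rest on it. The WT lists held 19981 and 36145 peaks and the dKO lists 33941 and 28221, so that the groups overlapped. The number of reads stacked at each summit was recovered from the fold enrichment and p-value of the peak, with a solution for 100% of the peaks within a tolerance of 0.002 in −log10 p. The median summit rested on 4 reads in every list, and peaks of 3 to 5 reads made up 75.1% and 83.7% of the WT lists and 85.8% and 89.0% of the dKO lists. The genome-wide background recovered in the same way was 0.408 and 0.593 reads in the WT lists and 0.622 and 0.591 in the dKO lists. WT 1 thus had the lowest background, and WT 2, dKO 1 and dKO 2 lay at 1.45, 1.53 and 1.45 times its value. The lists give no library depth beyond this. With 2 lists a group, the exact two-sided permutation test over lists cannot give a p below 0.333, so that the differences below are descriptions of these 4 lists.

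H4R3me2s summits lay nearer to genes in WT than in dKO, but most of the gap in the share of peaks came from WT 1. Promoters, counted as 3000 bp on either side of a transcription start site, held 48.7% of WT 1 peaks and 28.9% of WT 2 peaks. They held 25.8% of dKO 1 peaks and 24.9% of dKO 2 peaks, against 15.1% of the genome. Both WT lists lay above both dKO lists, with WT 2 between WT 1 and the dKO lists. The means were 38.8% ± 14.0 in WT and 25.4% ± 0.597 in dKO (SD, n = 2 and 2 lists, exact permutation p = 0.333), and without WT 1 the difference was −3.55 percentage points in place of −13.5.

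Outside promoters, exons were the place where WT 1 differed most from the rest in relative terms. Exons held 6.12% and 2.51% of the WT peaks and 2.31% and 2.27% of the dKO peaks, beside 2.07% of the genome. The groups did not overlap, but WT 2 lay far closer to the dKO lists than to WT 1. Introns held 21.8% and 29.3% of the WT peaks and 31.6% and 32.1% of the dKO peaks, and distal intergenic sequence 23.3% and 39.3% against 40.3% and 40.7%. Both shares were lower in WT, the dKO intron shares lay close to the genome's own 32.4%, and all 4 distal shares lay below the genome's 50.5%. Without WT 1 the differences fell from 6.31 to 2.61 points in introns and from 9.17 to 1.16 points in distal sequence.

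**Figure D1:**
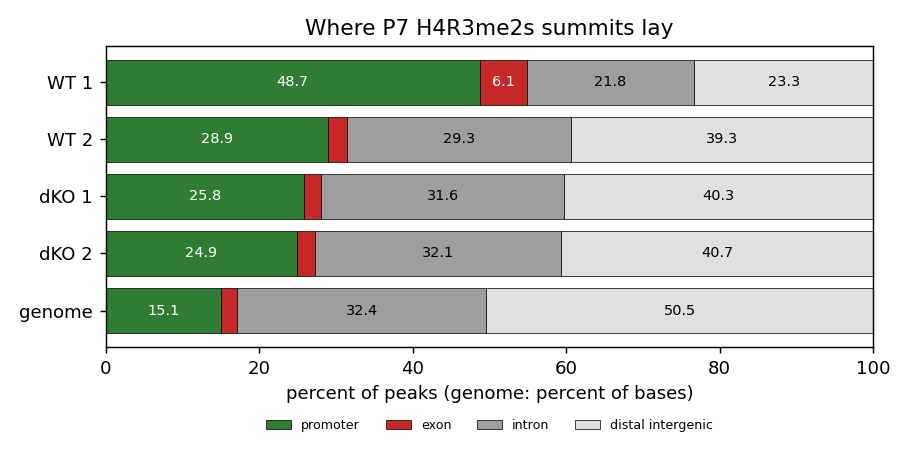
Share of H4R3me2s peaks (percent, x axis) in promoters, exons, introns and distal intergenic sequence for each of the 4 P7 lists, with the share of the genome for comparison. WT 1 has 48.7% of its peaks in promoters and the other lists 24.9% to 28.9%.

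At matched support the promoter gap depended on WT 1 at the weakest summits and less so at stronger ones. Among summits of 3 reads, the weakest, promoters held 35.6% in WT 1 and 19.2% in WT 2, against 19.4% and 21.1% in the dKO lists. WT 2 and the dKO lists lay side by side there, and at 4 reads, the commonest class, the shares were 39.5%, 23.5%, 21.8% and 22.9% in WT 1, WT 2, dKO 1 and dKO 2. Among summits of 7 or 8 reads, promoters held 74.1% and 61.1% in WT and 49.0% and 43.7% in dKO, so that both WT lists lay above both dKO lists. Such summits were also more numerous in WT. Peaks of at least 7 reads numbered 3128 and 2847 in WT and 2073 and 1321 in dKO, with no overlap, although WT 1 had the shortest list and the lowest background. Peaks that passed a q of 0.01 numbered 3112 and 1680 in WT and 1038 and 748 in dKO.

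At the top of the lists, regions met by peaks of any mark gathered, and WT 2 again lay near the dKO lists. Among summits of more than 20 reads, the share in promoters was 59.1% in WT 1, 27.9% in WT 2, and 23.7% and 24.7% in dKO. The share of these summits that met a peak in all 13 other P7 lists of the series, which hold 6 other histone marks in WT, was 41.8% in WT 1, 69.7% in WT 2, and 75% and 78.7% in dKO. WT 2 and the dKO lists were thus topped by regions shared with every mark, and WT 1 less so.

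**Figure D2:**
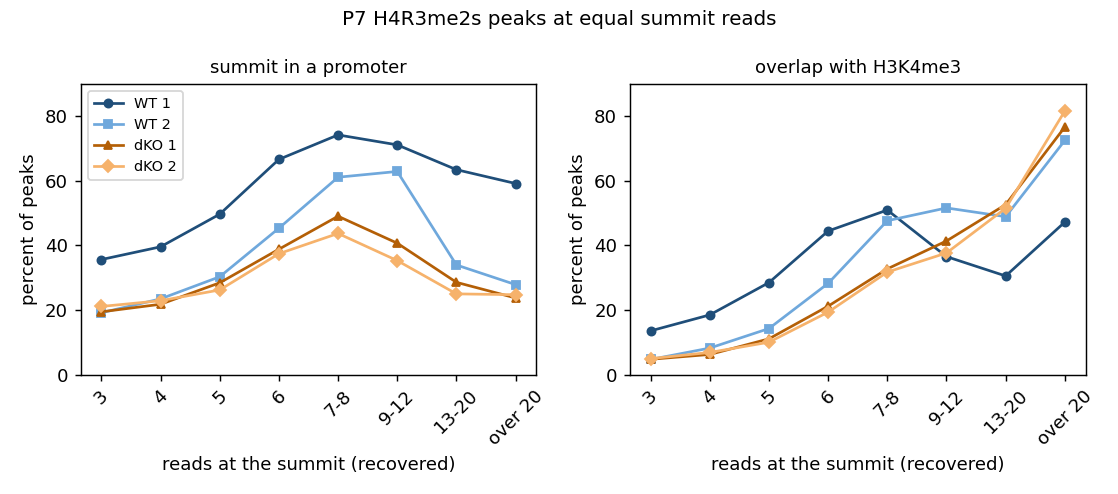
Share of peaks (percent, y axis) by the number of reads at the summit (x axis, classes from 3 reads to more than 20) in each of the 4 lists. At 7 or 8 reads promoters hold 74.1% and 61.1% of the WT peaks and 49.0% and 43.7% of the dKO peaks.

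Promoter summits also lay closer to the start site in WT. Within promoters the median distance from summit to start site was 325 and 409 bp in WT and 545 and 608 bp in dKO. Summits within 250 bp of the start made up 42.1% and 38.1% of promoter peaks in WT and 32.8% and 30.7% in dKO, and those beyond 1000 bp 24.5% and 30.8% against 36.1% and 38.7%. The groups did not overlap in any of these measures, and WT 2 stood between WT 1 and the dKO lists. The excess lay on the transcribed side. The 500 bp after the start held 39.3% and 32.7% of promoter summits in WT and 27.9% and 26.8% in dKO, whereas the 500 bp before it held 21.6%, 21.8%, 20.4% and 19.03% in the same order.

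**Figure D3:**
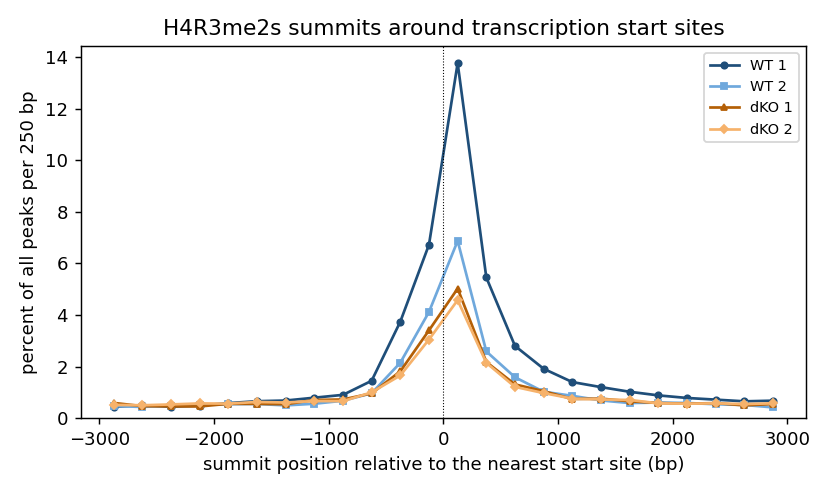
Position of promoter summits relative to the nearest transcription start site (x axis, bp in bins of 250, negative upstream) as a percent of all peaks of each list (y axis). The bin from 0 to 250 bp holds 13.8% and 6.88% in WT and 5.03% and 4.58% in dKO.

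H4R3me2s peaks were narrow in every list. The median width was 213 bp in WT 1 and 200 bp, the shortest width a peak could have, in the other 3 lists, and the mean was 291 and 263 bp in WT and 258 and 251 bp in dKO. Peaks at the shortest width made up 46.9% and 54.0% in WT and 56.1% and 60.1% in dKO, and peaks of at least 1000 bp numbered 97 and 66 against 46 and 38. The WT lists had the wider peaks without overlap in all of these but the median. By place, the medians differed in promoters and, in WT 1, in exons. The median promoter peak was 249 and 223 bp in WT and 203 and 200 bp in dKO, and the median exon peak 268 and 202 bp against 200 and 200 bp, whereas the median intron and distal peak lay at the shortest width in all 4 lists and could show no difference. Part of the promoter difference went with read support, since among promoter summits of 6 reads the medians were 274 and 253 bp in WT and 249 and 238 bp in dKO.

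Peak sequence followed the same order. The GC content of the 200 bp around the summits averaged 52.6% and 49.7% in WT and 49.2% and 48.4% in dKO, against 41.6% over the genome, and WT 2 lay close to the dKO lists. Soft-masked repeat sequence made up 20.8% of these windows in WT 1, 31.9% in WT 2, and 33.5% and 33.6% in dKO, against 36.6% over the genome.

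Over all peaks, co-occurrence with the active marks of WT P7 cells was higher in WT, but no single order held across all classes of read support. The H3K4me3 set, peaks found in both of its lists, held 16166 peaks over 0.589% of the genome, 91.2% of them in promoters, and the H3K27ac set 8396 peaks over 0.146%. H3K4me3 was met by 26.7% and 14.3% of the WT H4R3me2s peaks and by 10.7% and 9.90% of the dKO peaks. H3K27ac was met by 15.2% and 8.57% against 6.94% and 6.64%. The groups did not overlap for either mark, and without WT 1 the differences were −4.03 points for H3K4me3 and −1.78 points for H3K27ac, in place of −10.2 and −5.08. Among peaks with a q of at most 0.01, H3K4me3 was met by 42.4% in WT 1, 58.8% in WT 2, 55.3% in dKO 1 and 59.2% in dKO 2. The groups overlapped, and the difference of 6.69 points rested on WT 1. H3K27ac was met there by 32.7% and 52.1% in WT and 59.7% and 65.9% in dKO, a difference of 20.4 points that was smaller against WT 2 alone. At 7 or more reads the groups overlapped for both marks, with differences of −3.97 points for H3K4me3 and 7.34 for H3K27ac. By class, the groups overlapped for both marks at 3 reads. From 4 to 6 reads both WT lists lay above both dKO lists for both marks, with WT 2 nearer to dKO than to WT 1. At 5 reads H3K4me3 was met by 28.5% and 14.3% in WT and 11.1% and 10.1% in dKO, and H3K27ac by 15.2% and 7.46% against 6.15% and 5.70%. At 7 or 8 reads H3K27ac was met by 31.5% and 31.7% in WT and 24.0% and 27.7% in dKO. Above 20 reads 41.8% and 69.7% of the WT peaks and 75% and 78.7% of the dKO peaks met all 13 other P7 lists, the H3K27ac lists included. Because the marks come from WT cells only, these shares say where the dKO peaks lay and not what the dKO chromatin carried.

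Over all promoter peaks, both WT lists lay above both dKO lists. Of the promoter peaks, 49.96% and 44.9% met H3K4me3 in WT and 36.3% and 33.9% in dKO, and 24.2% and 21.9% met H3K27ac in WT against 18.7% and 17.4% in dKO. At 7 or 8 reads, 50.9% and 47.6% of all WT peaks met H3K4me3 and 32.7% and 31.7% of the dKO peaks. From 9 to 12 reads the groups overlapped, at 36.5% and 51.6% in WT and 41.4% and 37.6% in dKO. Above 20 reads dKO was higher, at 76.6% and 81.5% against 47.2% and 72.4%. Over all peaks outside promoters the marks were met by few, and there WT 1 alone stood high. At a q of at most 0.01 the order turned, with H3K27ac outside promoters at 34.8% and 46.2% in WT and 55.6% and 64.7% in dKO, and at 7 or more reads WT 1 and dKO 1 lay side by side, at 38.8% and 37.1% in WT against 39.0% and 48.7% in dKO. H3K27ac was met by 5.89% of the intron peaks of WT 1 and by 3.07%, 2.69% and 2.71% of those of WT 2, dKO 1 and dKO 2, and by 8.59% of its distal peaks against 3.33%, 3.06% and 3.42%. In exons the order was the other way round, with 0.981% and 1.54% in WT and 1.79% and 1.72% in dKO, which are 11 to 14 peaks a list.

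Seen from the active marks, the order held with both WT lists side by side. Of the H3K4me3 peaks, 31.2% and 30.7% held a WT H4R3me2s peak and 22.0% and 17.2% a dKO peak. Of the H3K27ac peaks, 36.8% and 37.4% held a WT peak and 28.6% and 23.2% a dKO peak. The WT lists lay close to each other for either mark although WT 1 had far fewer peaks than WT 2. Of the H3K4me3 peaks, 16.3% held a peak of both WT lists and 7.83% a peak of both dKO lists.

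Few peaks recurred. The 4 lists merged into 106079 regions, of which 97600 (92.0%) came from 1 list. Of the WT 1 peaks 16.6% met a WT 2 peak, 12.5% a dKO 1 peak and 10.3% a dKO 2 peak. Of the WT 2 peaks 9.19% met WT 1, 8.82% dKO 1 and 7.05% dKO 2, so that both WT lists met each other most often. The dKO lists did not. Of the dKO 1 peaks 6.86% met dKO 2, 7.34% WT 1 and 9.41% WT 2, and of the dKO 2 peaks 8.22% met dKO 1, 7.26% WT 1 and 9.01% WT 2, so that each met the longest list, WT 2, more often than its own replicate. Recurrence rose with support. Among all summits of at least 7 reads it was 38.2% and 46.0% in WT and 40.1% and 53.6% in dKO, and the groups overlapped. At a q of at most 0.01 in both lists it was 20.2% and 37.0% against 41.7% and 57.4%, so that the order of the groups turned there. Among summits of at least 7 reads, and without regions found in all 13 other P7 lists, 30.3% of WT 1 and 38.0% of WT 2 peaks recurred in the other WT list, and 27.2% of dKO 1 and 36.9% of dKO 2 peaks in the other dKO list. There both dKO lists met the WT lists more often than each other, with 32.8% and 35.4% of dKO 1 peaks and 38.0% and 41.2% of dKO 2 peaks in WT 1 and WT 2.

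The regions that recurred differed in kind between the groups. Peaks of both WT lists and of no dKO list met in 1467 regions, of both dKO lists and no WT list in 870, and of all 4 lists in 936. Of the 1467 WT regions 72.5% lay in promoters, 57.8% met H3K4me3 and 33.6% met H3K27ac. Of the 870 dKO regions 29.7%, 16.8% and 11.3% did, and their mean repeat share was 43.3% against 16.2%. These regions were chosen by where peaks fell, so that their counts carry no test. The same was seen in pairs that mixed the genotypes, in the order of the lists they drew on. Promoters held 62.5% of the 819 regions of WT 1 with dKO 1 and 56.2% of the 582 of WT 1 with dKO 2, against 38.8% of the 1357 of WT 2 with dKO 1 and 39.9% of the 935 of WT 2 with dKO 2. The WT pair was highest and the dKO pair lowest of the 6 pairs.

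**Figure D4:**
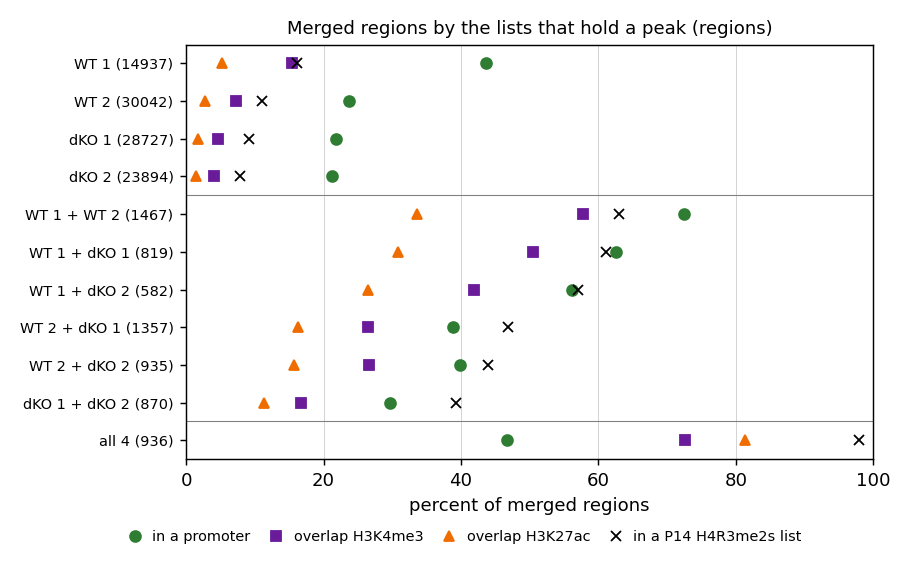
Promoter share and co-occurrence with WT H3K4me3, WT H3K27ac and the WT day 14 H4R3me2s lists (percent, x axis) of merged regions by the lists that hold a peak in them. Regions held by both WT lists alone have 72.5% in promoters and regions held by both dKO lists alone 29.7%.

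WT H4R3me2s lists of postnatal day 14, which took no part in the choice, were used as a second set. Of the regions of both WT lists alone, 63.0% met a peak in at least 1 of the 3 day 14 lists, against 39.3% of the regions of both dKO lists alone and 98.0% of those in all 4 lists. Of all merged regions 14.7% did. Regions of WT 1 with dKO 1 met them at 61.2% and regions of WT 2 with dKO 1 at 46.8%, so that the share followed WT 1 as well as genotype.

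The strongest WT regions in promoters and exons lay at H3f3b, Ptges3, Calm2 and a pseudogene. The region at H3f3b, a histone H3.3 gene (chr11:116022399-116023569, mm10, 1178 bp downstream of the start, with all 150 bases around the summit in a UTR), had a −log10 p of 42.2 in WT 1 and 25.6 in WT 2 from 50 and 34 reads, and no dKO peak. Gm21399 had 34.4 and 22.2 from 39 and 21 reads. In exons the strongest were Ptges3, a co-chaperone gene, with 11 and 17 reads, and Calm2, a calmodulin gene, with 11 and 16 reads. The RNA level of these 3 genes in sorted WT spermatogonia was 3049 and 3455 TPM for H3f3b, 187 and 209 for Ptges3 and 355 and 369 for Calm2. In introns Tmem132d, a transmembrane protein gene, had 45 reads in WT 1 and 7 in WT 2, and Gabrb1, a GABA receptor subunit, had 6 and 8. In distal sequence the strongest lay nearest to Gm21182, with 14 and 14 reads, and 4930517M08Rik, with 7 and 13. The widest region, 1406 bp, lay at Gm6382, a processed pseudogene on chromosome X. The regions at Gm21399, Ptges3, Calm2, Tmem132d and Gm6382 met no peak in the 13 other P7 lists.

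The strongest dKO regions were weaker. A −log10 p of at least 6 in both lists was reached by 6 of the 870 dKO regions, by 78 of the 1467 WT regions and by 339 of the 936 regions in all 4 lists. Foxo3, a forkhead transcription factor gene (chr10:42277818-42278441, summit at −1445 bp from the start), had 6.09 in dKO 1 and 6.30 in dKO 2 from 8 and 7 reads. Clcn4, a chloride transporter gene, had 5.46 and 5.88 from 7 and 8 reads. In introns Tiam1, an exchange factor for Rac, had 8 and 10 reads and Gm3772 had 8 and 8, and in exons Galntl6, a glycosyltransferase gene, had 6 and 7 and 4930402H24Rik 6 and 5. In distal sequence the strongest lay nearest to Rny3, with 28 and 30 reads over a high local background (2.78 and 3.19 times), and Gm24458, with 9 and 7 reads. The widest, 1044 bp, lay nearest to Ighv3-4. Each of these met between 1 and 10 of the 13 other P7 lists.

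Regions held by all 4 lists were topped by places where every mark had peaks, several of them repeats. Gm33838 had 175, 203, 200 and 204 reads in WT 1, WT 2, dKO 1 and dKO 2, and Gm10800, also satellite, 324, 357, 348 and 367. The region at Lars2, a mitochondrial leucyl-tRNA synthetase gene, had 40 to 49 reads, that in an intron of Chl1, a cell adhesion gene, 87 to 106, that at Sfi1, a centrosome gene, 14 to 26, and that in 2700054A10Rik 209 to 268. In distal sequence the regions nearest to Mrgprd, a telomere repeat, and to Gm9075 had 112 to 123 and 97 to 123 reads. The widest region, 5599 bp, covered AY036118 and Gm42418 and had 96 to 112. Reads of the groups overlapped at Gm33838, Gm10800, Lars2, Mrgprd and Gm9075. At Sfi1, 2700054A10Rik, Chl1 and AY036118 both dKO lists had more reads, but the fold over background, which allows for the unequal backgrounds, gave no such order: it overlapped at Sfi1, 2700054A10Rik and AY036118, and at Chl1 it was 22.9 and 22.0 in WT and 20.9 and 21.7 in dKO. All of these but the region at Sfi1, which met 11, met all 13 other P7 lists. Of the 936 regions, 381 (40.7%) met every one of them.

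The exon peaks of WT 1 lay in genes of higher RNA level, mostly in last exons, and WT 1 had the most peaks in processed pseudogenes. Of its 1223 exon peaks 83.1% lay in a last exon, against 60.2% of the 907 of WT 2, 58.2% of the 784 of dKO 1 and 60.1% of the 641 of dKO 2. The genes under them had a median TPM (a level scaled by transcript length and library) of 27.5 in WT sorted spermatogonia for WT 1, and of 4.01, 4.80 and 3.11 for the other lists, beside 2.1 over all 22028 protein-coding genes. Over all exon peaks WT 1 stood apart and WT 2 lay with the dKO lists. At 7 or more reads the last-exon share was 95.2% of 330 in WT 1 and 83.5% of 109 in WT 2, against 56.8% of 44 in dKO 1 and 73.1% of 26 in dKO 2, so that WT 2 lay above both dKO lists. Processed pseudogenes, which are copies of spliced transcripts, held 837 peaks (4.19%) in WT 1, 283 (0.783%) in WT 2, 189 (0.557%) in dKO 1 and 144 (0.510%) in dKO 2. Among summits of at least 7 reads the shares were 14.5%, 1.83%, 0.675% and 0.681%.

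Of the 1467 WT regions, 81 lay in processed pseudogenes. For 79 of these, all on chromosomes 1 to 17, 19, X and Y, 300 bases at the summit were aligned to coding transcripts. In 75 at least 200 bases matched at an identity of 90% or more, with a median identity of 97.0% over the 78 that matched at all, and 60 of the 79 met no other P7 list. Gm21399 matched Prdx1 at 98.7%, with 4 of the 300 bases different. Other pairs were Gm2986 with Sub1, a transcription coactivator gene, Gm12988 with Skp1a, a ubiquitin ligase subunit, and Rbx1-ps with Rbx1, its partner in the ligase. Where peaks in last exons and in near copies of transcripts come from was not tested. Without processed pseudogenes and the peaks classed as exonic, which leaves promoter summits inside exons in place, the difference in promoter share was −13.8 points, and both WT lists alone had 1345 regions.

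The repeat stretch shown above was commoner in dKO regions. Its 49 bases, counted on both strands, occur 1987 times in the genome and lay in 50 (0.250%) and 170 (0.470%) of the WT peaks and in 252 (0.742%) and 155 (0.549%) of the dKO peaks. As a share of peaks both dKO lists lay above both WT lists, with WT 2 close to dKO 2. By count WT 2 lay above dKO 2, and its peaks held 9.91% of the genome's copies against 8.81%. It lay in 42 of the 870 dKO regions (4.83%), in 8 of the 1467 WT regions (0.545%) and in 18 of the 936 regions of all 4 lists (1.92%). Because the stretch was chosen from regions held by the dKO lists alone, the choice itself favours the dKO lists, and both the shares per list and the region counts are descriptions. Lists that took no part in that choice varied among themselves. The WT day 14 H4R3me2s lists had it in 0.518%, 0.282% and 0.494% of peaks, P7 H3R8me2a in 0.508% and 0.475%, P7 H4R3me2a in 0.283% to 0.362%, H3K27ac in 0.0137% and 0.00841%, and H3K4me3 in no peak. The telomere repeat, found in 72, 72, 73 and 71 peaks, and the satellite stretch, in 21, 19, 19 and 19, were alike by count in the 4 lists. As a share of peaks both were highest in WT 1, at 0.360% and 0.105%.

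**Figure D5:**
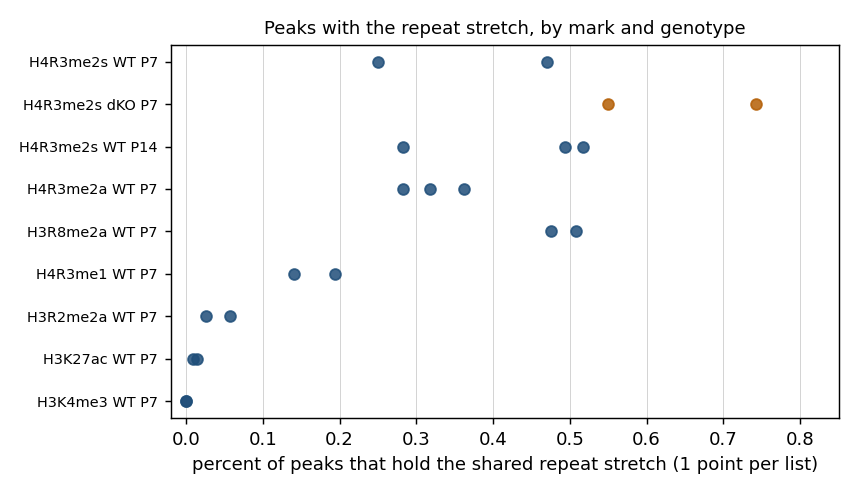
Percent of peaks (axis) that hold the 49-base repeat stretch in each H4R3me2s list and in the other CUT&Tag lists examined. The dKO lists stand at 0.742% and 0.549% and the WT P7 H4R3me2s lists at 0.250% and 0.470%.

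A promoter summit was found at 33% and 33.6% of the 22028 protein-coding genes in the WT lists and at 27.4% and 23% in the dKO lists. Both WT lists had one at 3906 genes (17.7%) and both dKO lists at 2161 (9.81%). The genes were divided by the lists that held a summit, and 1215 (5.52%) had it in both WT lists alone, 418 (1.9%) in both dKO lists alone and 999 (4.54%) in all 4 lists. The counts below are read beside these shares, and no test was made over the gene lists.

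Among arginine methyltransferases and their partners, 3 of 12 genes had a summit in both WT lists alone, none in both dKO lists alone and 2 in all 4. Prmt1 itself had 5 reads at −97 bp from its start in WT 1 and 8 reads at −582 bp in WT 2, in separate peaks that met H3K4me3 and H3K27ac, and none in dKO. The peaks lie at the promoter and not at the floxed exons, and so do not check the deletion. Prmt3, a methyltransferase of ribosomal protein, had 5 and 4 reads in WT, also in separate peaks, and Prmt8, known from neurons, 5 and 5. Carm1, which methylates histone H3, had 11, 8, 9 and 7 reads in WT 1, WT 2, dKO 1 and dKO 2, and Wdr77, the partner of PRMT5, 8, 4, 5 and 5. Prmt5 had a summit in no list. Prmt2, Prmt6, Prmt7, Prmt9, Clns1a and Coprs had one in 1 to 3 lists, in no order of genotype.

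Of 9 transcription factors of spermatogonia that the study inspected, Pou3f1 and Etv5, both tied to self-renewal, had a summit in both WT lists alone. Pou3f1 had 5 and 5 reads, in separate peaks at 618 and −344 bp from a start site, and Etv5 3 and 8 in peaks that overlapped. Sohlh2, a factor of differentiation, had 5 and 6 reads in both dKO lists alone. Lhx1 and Zbtb16 had one in WT 1, Taf4b in WT 2, Bcl6b in dKO 1, Id4 in WT 2 and dKO 2, and Pou5f1 in none. Of 25 spermatogonial genes 2 and 2 fell in the WT and dKO classes, Stra8, the gene that starts meiosis, being the other dKO gene. Of 29 meiotic genes 0 and 1 did, while single lists held 4, 5, 9 and 8 of them.

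Splicing factors, many of which are arginine methylated, had summits at more genes in WT. Of 30 genes 18 and 20 had a summit in the WT lists and 12 and 12 in the dKO lists. In both WT lists alone were 7, Srsf1, Srsf3, Srsf4, Hnrnpk, Hnrnpl, Hnrnpu and Ptbp1, none was in both dKO lists alone, and Srsf2, Srsf6 and Hnrnpa1 were in all 4. All 30 had H3K4me3 in WT, as did 60.5% of all protein-coding genes. Of 30 ribosomal protein genes, also all with H3K4me3, 17 and 14 had one in WT and 10 and 5 in dKO, with 4 in the WT class and 2 in the dKO class. Both gene lists were thus covered more often in WT, as all genes were.

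Markers of the cells in the suspension were also looked up. H3K4me3 lay at 11 of 12 germ cell, 3 of 6 spermatocyte and 9 of 10 Sertoli cell promoters, and at 1 of 7 Leydig cell, 1 of 5 peritubular, 0 of 6 macrophage and 2 of 5 endothelial promoters, beside 60.5% of all 22028 protein-coding genes. H4R3me2s summits in WT 1, WT 2, dKO 1 and dKO 2 were at 2, 4, 5 and 3 germ cell markers, 0, 0, 2 and 3 spermatocyte markers and 1, 4, 3 and 3 Sertoli markers. They were at 2, 1, 2 and 1 Leydig, 1, 0, 1 and 1 peritubular, 1, 0, 2 and 2 macrophage and 1, 1, 2 and 1 endothelial markers. The mix of cells in the dKO suspension has no such check here, and its part in the peak differences was not tested.

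RNA from the same age was set beside the promoters. The study's methods describe the sorted controls as Ddx4-GFP-CreERT2 mice heterozygous for the floxed Prmt1 allele, while the labels call them WT, as they are called here. Sorted spermatogonia (Smart-seq2, 2 WT and 2 dKO libraries) and whole testes (3 and 3) were compared between genotypes over all genes, by the quasi-likelihood test in edgeR. Calls needed an adjusted p (Benjamini-Hochberg) below 0.05 and a change of at least 2-fold. Prmt1 had 350 and 239 TPM in sorted WT and 179 and 151 in sorted dKO cells, with no overlap and a log2 fold change of −0.88 (adjusted p = 0.133). In whole testes its TPM was 652, 604 and 638 in WT and 410, 433 and 402 in dKO, a log2 fold change of −0.49 (adjusted p = 0.0334), which is less than 2-fold. Prmt5 had 55.6 and 49.4 TPM in sorted WT and 48.7 and 54.9 in sorted dKO cells, and the groups overlapped.

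In sorted spermatogonia no gene of any promoter class was called, since edgeR called 0% of 16443 genes higher and 0% lower. At an unadjusted p below 0.05, 16.4% were higher and 7.35% lower, and DESeq2 called 1879, of which 138, 57 and 98 lay in the WT class, the dKO class and all 4 lists. With edgeR, 899 genes of the 3 classes were called without WT library 1 and 733 without WT library 2, where the lone WT library was assumed to vary like the dKO pair. The dKO libraries detected 21404 and 20194 genes and the WT libraries 17106 and 15587, and the summed TPM of 6 macrophage markers was 0 and 0 in WT and 32.1 and 29.7 in dKO. That of 6 spermatocyte markers was 650 and 646 in WT and 348 and 387 in dKO. The sum of 10 Sertoli markers was 267 and 224 in WT and 323 and 447 in dKO, and that of 12 germ cell markers 1522 and 1518 against 1843 and 1840. The part of these differences in the result was not tested.

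In whole testes edgeR called 5.32% of 16554 genes higher in dKO and 1.78% lower, or 18.2% and 15.7% at an unadjusted p below 0.05. Of the genes with a summit in both WT lists alone, 33 rose and 19 fell among 1248 tested, which is 4.17%. Of those in both dKO lists alone 12 rose and 9 fell among 352, which is 5.97%, and of those in all 4 lists 18 rose and 14 fell among 1015, which is 3.15%. All 3 shares lay below the 7.10% of all genes tested, and genes with no summit in any list stood at 12.5% of 4144. The genes with no summit had a lower median WT level, 6.02 TPM against 26.8, 15.4 and 30.7 in the 3 classes. The part of RNA level in these shares was not tested. The median log2 fold changes were −0.00 for the WT class, 0.05 for the dKO class and −0.08 for all 4 lists, beside 0.02 over all genes. Among the called genes of the WT class that fell was Amh, the Sertoli cell hormone, which was chosen after the calls were known. In these libraries the summed TPM of 10 Sertoli markers, Amh among them, was 4267 to 4584 in WT and 2882 to 3252 in dKO. Amh was the only call among the 9 of them tested, whose log2 fold changes had a median of −0.20. The summed TPM of 7 Leydig markers was 789 to 891 in WT and 285 to 323 in dKO. That of 5 peritubular markers was 827 to 900 in WT and 290 to 507 in dKO. In whole testes fewer cells of a type and less RNA per cell cannot be told apart.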

How the data were processed

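Per the labels and the study's methods, the authors trimmed reads with fastp 0.23.2, mapped them to mm10 and called peaks in each sample with MACS2 2.1.0 at p of 0.005 (H3K4me3 at q of 0.05). The aligner and the control for the peak calls were not given in the sources used here. The deposited peak lists give fold enrichment, a ratio over the local background, and −log10 p-value and −log10 q-value for each peak. The deposited RNA tables give expected counts and TPM made by the authors with RSEM, and the expected counts were rounded here.

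Each summit was placed in a promoter (3000 bp around a start site), exon, intron or distal sequence of GENCODE transcripts. The reads at a summit were solved from its fold enrichment and p under the Poisson model of MACS2. Peaks were shared at an overlap of 1 base. A region was named for the 2 highest of the lowest −log10 p among its lists, in each place and class, and for the widest. Every gene of the inspected transcription factors and the methyltransferase family was named as well. The spermatogonial, meiotic, splicing, ribosomal protein and cell marker lists were counted. The members and lists were chosen with earlier results of these data known, and the shared repeat and pseudogene checks after seeing the peaks. RNA was tested with edgeR 4.0.16 (TMM, filterByExpr, no replicate block), with DESeq2 1.42.0 as the alternative, and both scripts were tested on simulated data. Pseudogenes were aligned with blastn 2.17.0. Sequences are from RefSeq GRCm38.p6. Alternatives covered the q-value, list length, promoter width, overlap, the sets of the other marks, and each replicate left out. The authors' FPKM was not used.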

Additional observations from a re-analysis of the deposited data

Results flagged for a closer look

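The effect of Prmt1 deletion on the RNA of Bcl6b, a transcription factor gene of spermatogonial self-renewal, differed between whole testes and sorted spermatogonia (edgeR interaction, adjusted p = 0.000126). In sorted cells it was listed at 0 TPM in both WT libraries and at 3.71 and 6.10 in the dKO libraries. In whole testes it had 8.71, 10.3 and 8.29 TPM in WT and 10.5, 8.28 and 10.9 in dKO, and the groups overlapped. Neither assay alone called Bcl6b or any other of the 9 inspected transcription factors. The only H4R3me2s promoter summit of Bcl6b lay in dKO 1. The same interaction passed an adjusted p below 0.05 at 3722 of 19608 genes. The macrophage markers Lyz2, Csf1r and Cd68, also listed at 0 TPM in both sorted WT libraries, had 0.000111, 0.000181 and 0.000271, and the part of other cells in the Bcl6b value was not tested.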

How the results depend on the processing

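Differences below are the dKO mean minus the WT mean, shares in percentage points. Of 106 recomputed differences 11 reversed, and that in median width came to 0 without WT 1. With 2 lists a group, leaving out a list cannot move a difference by more than 1 pooled SD, so that a small move there is no sign of stability. Of 21 recomputed region counts 13 stayed within 1.5 times. At a q of at most 0.01 the differences were −1503 peaks (from 3018), −28.0 in promoters, −5.99 in exons, 24.3 in distal sequence, 15.2 bp in median width, 20.9 in replicate recurrence (from −5.36), 6.69 for H3K4me3, 20.4 for H3K27ac and 19.6 for H3K27ac outside promoters, with 206, 24 and 335 regions in both WT lists alone, both dKO lists alone and all 4. At 7 or more reads, an alternative chosen after seeing the data, they were −1290.5 peaks, −5.14 in exons, 10.3 in introns, 18.03 in distal sequence, −38.8 bp in median width, 7.91 in recurrence, −3.97 for H3K4me3, 7.34 for H3K27ac and 5.86 outside promoters, with 255, 43 and 419 regions. The H3K4me3 value at a q of at most 0.01 rested on WT 1, with 42.4% in WT 1 and 58.8% in WT 2 against 55.3% and 59.2% in dKO. Without regions found with all 13 other P7 lists 558 were left in all 4 lists, and at equal list length 499 in both dKO lists alone. With a peak in either H3K27ac list the differences were −8.43, and −3.90 outside promoters.

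Leaving out each list in turn gave −5064 (without WT 1) to 11100 peaks (without WT 2), −23.4 to −3.55 in promoters, −3.83 to −0.219 in exons, 2.61 to 10.02 in introns, 1.16 to 17.2 in distal sequence, −13 to 0 bp in median width, −16.4 to −4.03 for H3K4me3, −8.37 to −1.78 for H3K27ac and −3.57 to −0.197 outside promoters. Both ends of every range came from leaving out a WT list.

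In the 3 promoter classes DESeq2 called 293 genes in sorted spermatogonia and edgeR 0, with a range of 0 to 899 when a library was left out (899 without WT 1, 733 without WT 2). With a WT library left out, the lone one is assumed to vary like the dKO pair, so that these counts do not measure the spread in WT. In whole testes 105 were called, 78 to 135 with a library left out. Same-numbered WT and dKO libraries did not deviate together in every pair (r = 0.017 in sorted cells, and 0.083, −0.221 and −0.119 in whole testes). With 2 libraries a group, r in sorted cells has the same size in every pair by construction. The labels give a shared number and no more, and these values cannot exclude a shared origin. With a replicate block 0 genes were called in sorted cells and 111 in whole testes. Pairing the peak lists by number leaves each difference of means as it is, by construction. Depth limits single peaks, since most rest on 3 to 5 reads, and absence from a list is not absence of the mark.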
